A study of Mus musculus with 2 samples.

Results

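The renin-angiotensin system was described through 9 mouse genes: Agt, Ren1, Ace, Enpep, Agtr1a, Agtr1b, Agtr2, Mas1 and Agtrap. They were found by symbol among the gene probes of a whole-genome array (Agtr1a under its older name Agtr1), and every probe that carried one of the names was kept. All 9 genes had a probe, with 17 probes in all. Of these genes 8 could be compared between the segments, out of 22811 genes compared on the arrays.

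Total RNA came from the aortas of 16-week-old apoE-/- mice, pooled over 3 males and 3 females. These mice have no apolipoprotein E, a ligand that clears lipoproteins from plasma, and form atherosclerotic plaques. An arch pool combined the aortic arch of 6 mice with the root and the upper 2 mm of the thoracic aorta, a region labelled as prone to atherosclerosis. A thoracic pool held the following 6 mm of the aorta of 6 mice, labelled as resistant. The labels call the RNA that of smooth muscle. The aortas had been perfused with the detergent Triton X-100 to strip the endothelium, and no wild-type aorta was compared. Each of 2 arrays measured both pools at once in 2 colours, with arch RNA in Cy3 on array 1 and in Cy5 on array 2. Each segment is therefore 1 pool, and the 2 arrays are a technical repeat with the dyes exchanged. Errors below are SDs between the 2 arrays, which leave out the spread between mice, and no p-value could be given.

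In the renin-angiotensin system the protease renin (Ren1) cuts angiotensinogen (Agt) to angiotensin I. Angiotensin-converting enzyme (Ace) turns that peptide into angiotensin II, and aminopeptidase A (Enpep) trims angiotensin II further. In the vessel wall, angiotensin II acts on smooth muscle through the type 1 receptor, which mice encode in Agtr1a and Agtr1b, and causes contraction and growth. The type 2 receptor (Agtr2) and Mas1, a receptor for angiotensin-(1-7), are known for opposing effects, and Agtrap binds the type 1 receptor and promotes its internalisation. Most circulating renin comes from juxtaglomerular cells of the kidney, which are modified arteriolar smooth muscle cells, and most angiotensinogen comes from the liver.

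Of the 9 genes Ren1 was the one whose signal differed most between the segments, so the 250 bases ahead of its start are shown (RefSeq, GRCm38.p6, chr1:133350424-133350673, plus strand). The capitals mark TATAAA, a core promoter motif.

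Ren1 promoter: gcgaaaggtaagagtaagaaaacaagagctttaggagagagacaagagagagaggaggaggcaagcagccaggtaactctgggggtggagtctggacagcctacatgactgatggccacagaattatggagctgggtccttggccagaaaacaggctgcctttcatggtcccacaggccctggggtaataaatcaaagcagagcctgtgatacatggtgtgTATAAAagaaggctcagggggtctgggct

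TATAAA was searched on both strands in the 250 bases before each start. It begins at position -29 in Ren1, and on the forward strand also at -30 in Agt and at -31 in Agtr1b. Ace, at 1 of its listed starts, and Enpep hold it on the reverse strand only. The motif occurs in 12.4% of the 32851 mouse promoters listed, and a match to these letters is a description of the sequence, not of factor binding. RefSeq promoters were matched for 8 of the 9 genes.

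Signals are given in the order of the arrays after background correction, which adds 50 to every signal, and after scaling of the dyes. Ratios are log2 of arch over thoracic. A gene passed by size where its mean ratio was at least 2-fold and each array gave at least 1.5-fold the same way. Over all 22811 genes 0.473% passed as higher in the arch and 0.145% as lower. Ren1 alone among the 8 compared genes passed as higher, none passed as lower, and 7 passed in neither direction. A looser limit, a mean of 1.5-fold with both arrays the same way, was reached as higher by 1.4% of all genes and as lower by 0.456%, and among the 8 genes again by Ren1 alone. The median ratio of the 8 genes was 0.05, with 4 above 0 and 4 below, against a median of -0.01 over all genes. For 7 of the 8 genes both arrays gave the same direction, as they did for 67.6% of all genes compared.

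**Figure D1:**
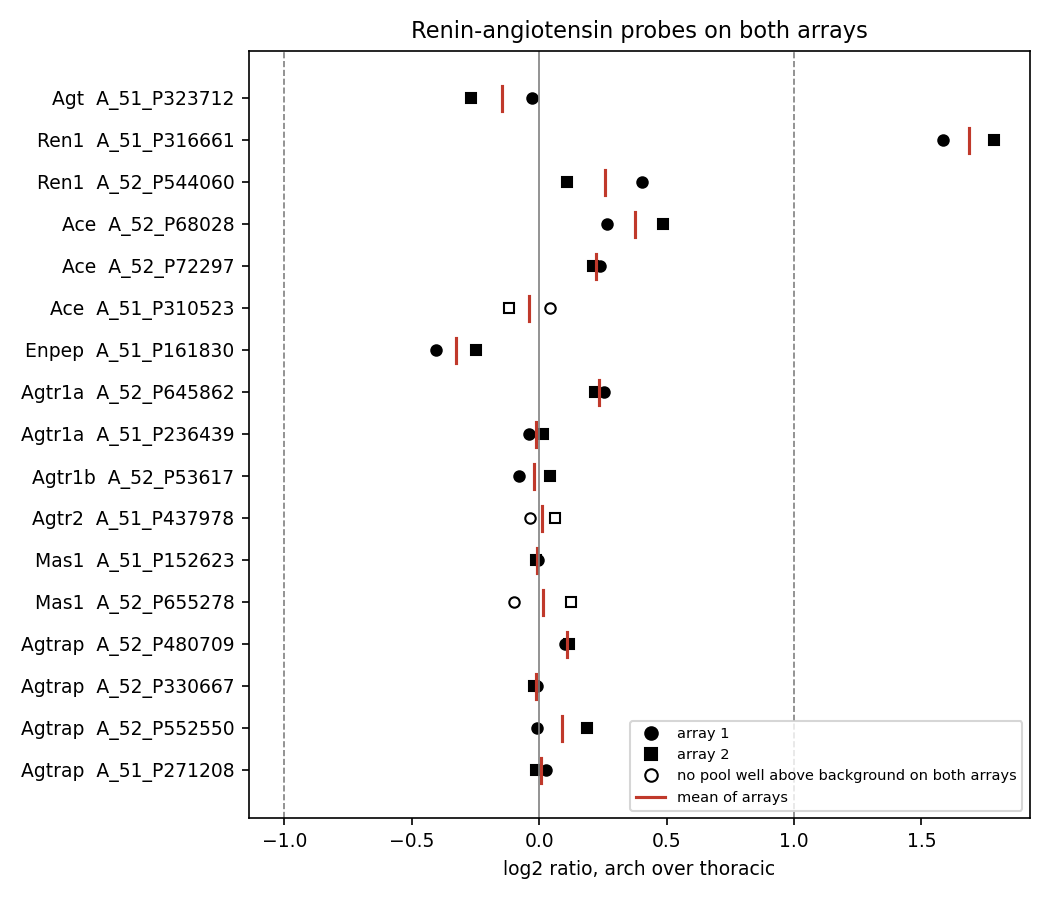
Log2 ratio of arch over thoracic signal for each probe of the renin-angiotensin genes, 1 point per array. The 2 points of the bright Ren1 probe stand at 1.58 and 1.79, apart from all other probes, whose ratios lie between -0.40 and 0.49.

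Ren1, the protease that starts the cascade, had signals of 485 and 539 in arch RNA, against 162 and 156 in thoracic RNA on its brightest probe (A_51_P316661). The arch signals were higher on both arrays and did not overlap the thoracic ones. The ratio was 1.68 ± 0.14 (SD, n = 2 arrays), or 3.22-fold, and ranked 18 of 22811 genes from the top. In the authors' deposited log ratios, which carry no added offset, the same probe was 2.14 ± 0.19, or 4.42-fold.

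The second Ren1 probe (A_52_P544060) was dim and gave 121 and 109 in arch RNA and 91.3 and 101 in thoracic RNA. Both arrays put the arch higher, but the ratio was only 0.26 ± 0.21, or 1.19-fold, and 0.57 ± 0.44 in the authors' deposited log ratios. The 2 Ren1 probes were thus 1.43 apart on the log2 scale, against a median gap of 0.10 over the 6856 genes with several compared probes. Among the 44 passing genes with several probes the median gap was 0.95, and 6 of them had a larger gap than Ren1. With the median over its probes in place of the brightest probe, Ren1 had a ratio of 0.97 and no longer passed.

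Some mouse strains carry Ren2, a near-identical second renin gene, and the labels give no strain background. Its probe (A_52_P192265) had signals of 172 and 172 in arch RNA, against dim signals of 83.8 and 85.8 in thoracic RNA. The ratio was 1.02 ± 0.03, or 2.03-fold, and the authors' deposited log ratios averaged 1.94. It passed as higher in the arch too, though not without background subtraction, where it was 0.83. As the 2 genes are so alike, a signal on a Ren1 or a Ren2 probe cannot be assigned to either copy with certainty.

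Angiotensinogen (Agt), the substrate of renin, had 90.6 and 76.9 in arch RNA and 92.4 and 92.5 in thoracic RNA. The arch was lower on both arrays, by 0.03 and by 0.27, and the mean ratio of -0.15 ± 0.17 was within the difference between the arrays. The probe was dim, and the authors' deposited log ratios for it were -0.11 and -0.75.

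**Figure D2:**
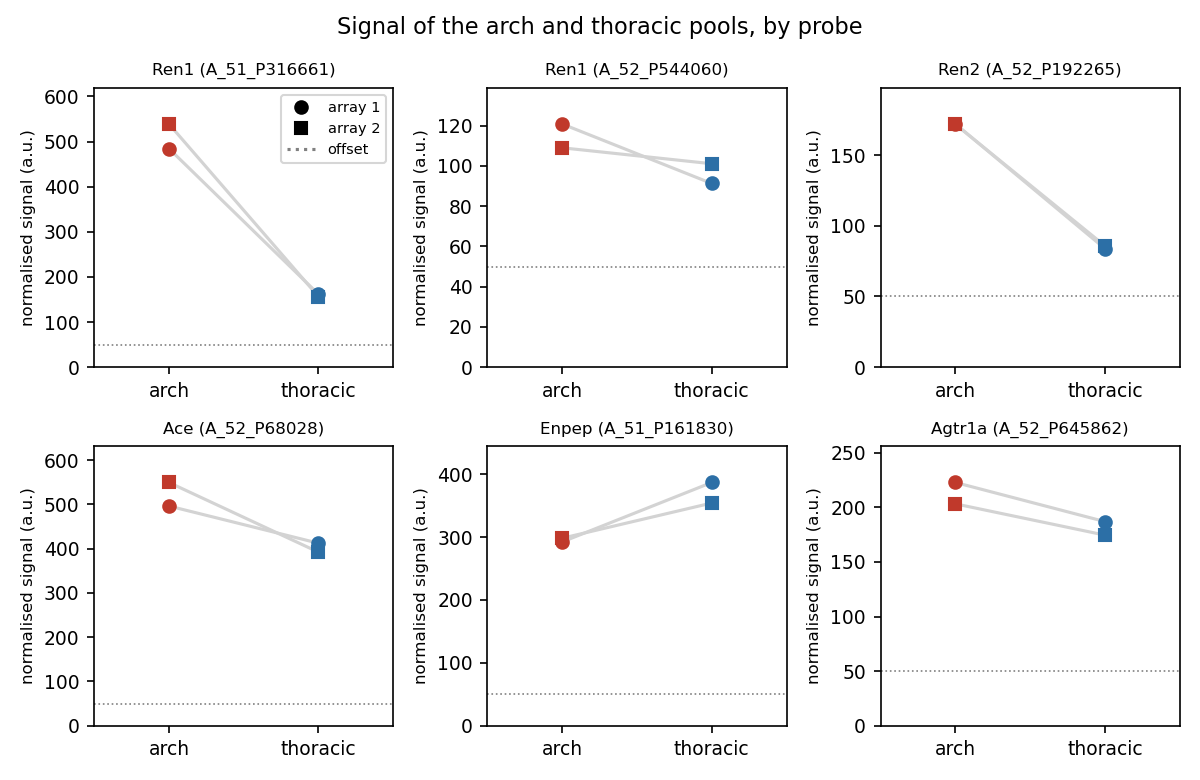
Signals of the arch and the thoracic pool on each array, on linear axes. Both Ren1 probes, the Ren2 probe and the brightest probes of Ace, Enpep and Agtr1a are shown. The bright Ren1 probe stands at 485 and 539 in arch RNA against 162 and 156 in thoracic RNA. The Ren2 probe stands at 172 and 172 in arch RNA against 83.8 and 85.8 in thoracic RNA. On the other probes, the second Ren1 probe among them, the ratio between the 2 pools is smaller.

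The enzymes that make and remove angiotensin II differed less, and in opposite directions. Ace had 496 and 549.6 in arch RNA and 412 and 392.1 in thoracic RNA on its brightest probe (A_52_P68028). Both arch values were higher, with a ratio of 0.38 ± 0.16, or 1.30-fold, under both size limits. A second, dimmer probe pointed the same way at 0.22 ± 0.02, with 114 and 111 in arch RNA against 96.6 and 96.3 in thoracic RNA. The third Ace probe was well above background in 1 of 4 measurements, thoracic RNA on array 2, with 65.6 and 66.1 in arch RNA and 63.7 and 71.8 in thoracic RNA. A further probe, made to a testis cDNA clone described as Ace, was not counted as Ace and had a ratio of -0.05 ± 0.01.

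Enpep, the aminopeptidase that removes the first residue of angiotensin II, had 292 and 298 in arch RNA, against 387 and 354 in thoracic RNA. Both arch values were lower, without overlap. Its ratio of -0.33 ± 0.11, 1.25-fold in favour of the thoracic pool, was the lowest of the 8 genes and stood 522 places from the bottom of all genes compared. Like Ace, it stayed under both size limits.

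Among the receptors, Agtr1a, the more widely expressed of the 2 type 1 receptor genes, had 223 and 203 in arch RNA and 187 and 175 in thoracic RNA on its brightest probe. The arch was higher on both arrays, with a ratio of 0.24 ± 0.02, or 1.18-fold. Its other probe showed no such difference, with 117 and 138 in arch RNA, 120.2 and 137 in thoracic RNA, and a ratio of -0.01 ± 0.04. Agtr1b, the second type 1 receptor gene, had 79.1 and 82.9 in arch RNA and 83.6 and 80.6 in thoracic RNA. The arrays gave opposite directions, -0.08 and 0.04, with a mean of -0.02 ± 0.08.

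Mas1 had 106 and 92.0 in arch RNA and 107 and 92.7 in thoracic RNA on its brighter probe, a ratio of -0.01 ± 0.00. The 2 pools lay closer together than the 2 arrays did for either pool. Its second probe was not well above background in any of 4 measurements, at 58.6 to 64.0. Agtr2 has a single probe, at 60.0 and 61.4 in arch RNA and 61.6 and 58.8 in thoracic RNA, and it was not well above background in any measurement. No fold is given for it, and at this signal a difference could not be detected.

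Agtrap, the type 1 receptor binding protein, had 3961 and 4276 in arch RNA and 3688 and 3948 in thoracic RNA on its brightest probe. The ratio of 0.11 ± 0.01 was the same in sign on both arrays but amounted to 1.08-fold. Its other 3 probes had mean ratios between -0.01 and 0.09. Over the 9 genes no probe was saturated, and 14 of the 17 probes could be compared. Of those 14, 10 gave the same direction on both arrays.

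**Figure D3:**
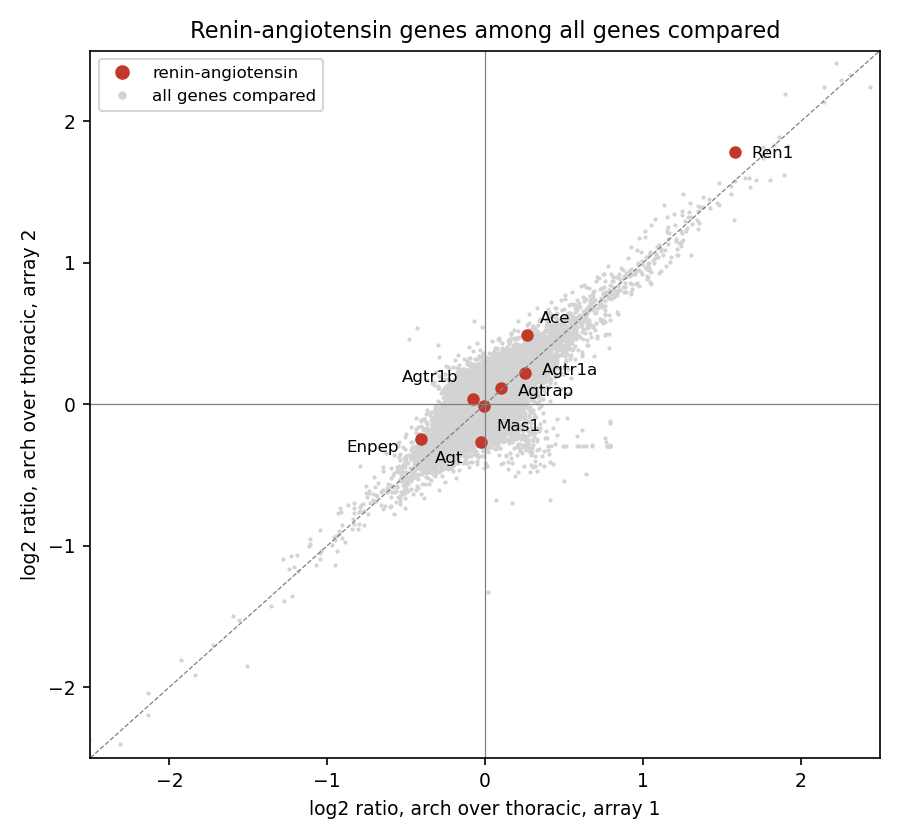
Log2 ratio of arch over thoracic on array 2 against array 1 for the 22811 genes compared, with the renin-angiotensin genes named. The axes end at a ratio of 2.5 in size, and 10 genes lie beyond them and are not seen. Ren1 lies at 1.58 on array 1 and 1.79 on array 2, outside the range from -0.24 to 0.31 that holds the middle 90% of mean ratios, as do Ace at 0.38 and Enpep at -0.33, and the other 5 genes lie inside it.

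Other peptidases that form or break angiotensins were compared for 14 of 14 listed genes. None passed in either direction, and 9 lay above 0 and 5 below, with a median of 0.03. Cathepsin D (Ctsd), a lysosomal aspartic protease that can release angiotensin I, came closest to the limit. It had 20293 and 19788 in arch RNA, against 9948 and 10202 in thoracic RNA, a ratio of 0.99 ± 0.05, or 1.99-fold, and 0.81 ± 0.20 on a second probe. It was the single gene of that list past 1.5-fold, and on array 1 alone, at 1.03, it met the size limit. Aminopeptidase N (Anpep), which acts on angiotensin III, had a ratio of 0.37 ± 0.03. The mast cell chymases Cma1 and Mcpt4, which can form angiotensin II in place of Ace, had ratios of -0.25 ± 0.08 and -0.24 ± 0.04. The carboxypeptidase Prcp had a ratio of -0.15 ± 0.00. Lnpep, the insulin-regulated aminopeptidase that binds angiotensin IV, had 0.16 ± 0.06 on its brightest probe and -0.16 ± 0.08 on its other.

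Of 12 further genes of the renin-angiotensin-aldosterone system 9 could be compared. Ren2 passed as higher and none as lower. Sgk1, a kinase induced by mineralocorticoids and glucocorticoids, had 1843 and 2016 in arch RNA, against 1185 and 1202 in thoracic RNA. Its ratio was 0.69 ± 0.08, or 1.61-fold, above the looser limit. The (pro)renin receptor Atp6ap2 had a ratio of 0.17 ± 0.07, and Igf2r, the mannose 6-phosphate receptor that can take up prorenin, had 0.15 ± 0.01. Arap1 was at -0.17 ± 0.13 and Rnls, the gene of renalase, at -0.08 ± 0.02. The aldosterone synthesis genes Cyp11b1 and Cyp11b2, and Mrgprd, a receptor for alamandine, could not be compared.

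The kallikrein-kinin genes, whose product bradykinin is broken down by Ace, gave 8 compared genes of 10. None passed, 4 lay above 0 and 4 below. Kininogen (Kng1), the precursor of bradykinin, had 71.2 and 73.3 in arch RNA, against 127 and 122 in thoracic RNA. Its ratio was -0.78 ± 0.07, 1.72-fold in favour of the thoracic pool. In the authors' deposited log ratios, which carry no added offset, this dim probe was at -2.18 and -1.81, a 3.99-fold difference that met the size limit. A second Kng1 probe was not well above background. Xpnpep2, a peptidase that degrades bradykinin, had 0.24 ± 0.10, Cpn1, a subunit of carboxypeptidase N, had 0.06 ± 0.02, and the bradykinin receptor Bdkrb2 had -0.06 ± 0.15.

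**Figure D4:**
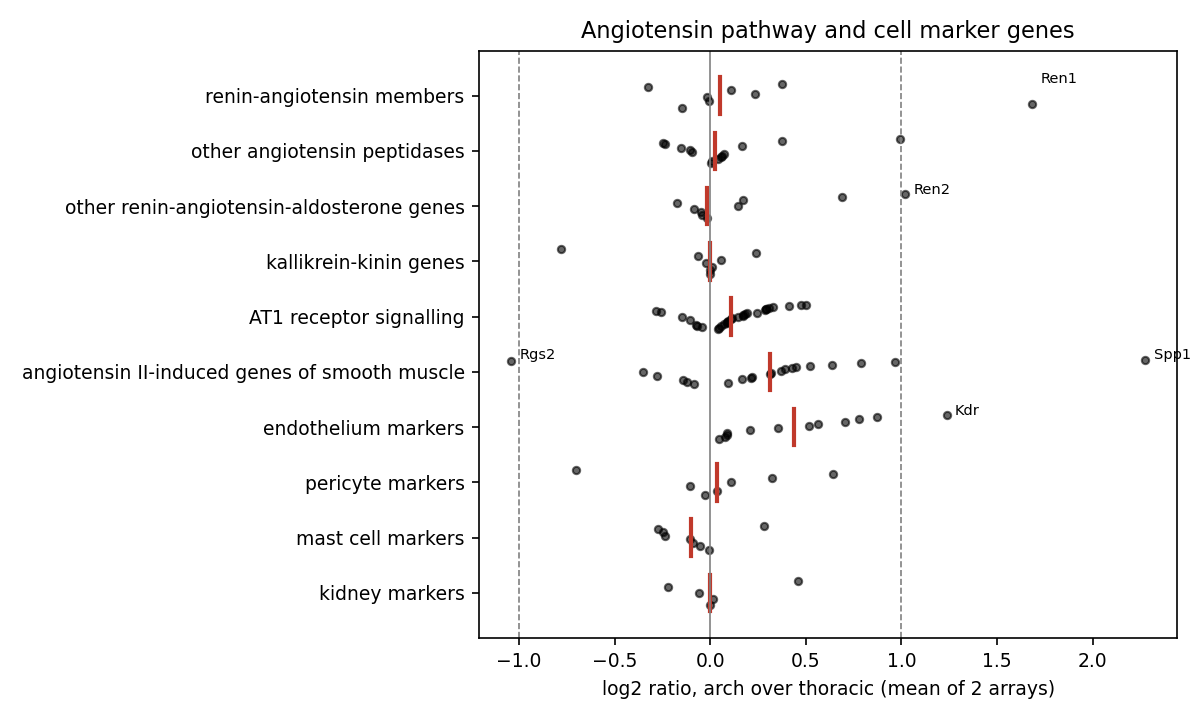
Mean log2 ratio of arch over thoracic for each compared renin-angiotensin gene and for the genes of further lists, with the median of each list. The 5 further pathway lists and the endothelium, pericyte, mast cell and kidney markers are drawn. Among the 5 further pathway lists the medians run from -0.02 for the other renin-angiotensin-aldosterone genes to 0.31 for the angiotensin II-induced genes. The highest median drawn is 0.44, for the endothelium markers.

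Genes downstream of the type 1 receptor were compared for 31 of 32 listed. None passed in either direction. Their ratios ran from -0.29 to 0.50 with a median of 0.11, and 24 lay above 0, against 47.3% of all genes. Phospholipase C beta 1 (Plcb1), which Gq activates, had 0.50 ± 0.08 on its brightest probe. The NADPH oxidase subunit Cyba had 0.48 ± 0.08, and the subunit Cybb had 0.41 ± 0.00 on its brightest probe and 0.19 ± 0.08 on a second one. Protein kinase C delta (Prkcd) had 0.33 ± 0.11. Nox1 could not be compared.

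Genes known to be induced by angiotensin II in smooth muscle were compared for 21 of 22. Their median was 0.31, with 15 above 0 and 6 below, and 1 passed in each direction. In the authors' deposited log ratios 3 passed as higher (Spp1, Vcam1 and Edn1) and 1 as lower. Osteopontin (Spp1), also made by macrophages, had 21164 and 20940 in arch RNA, against 4427 and 4274 in thoracic RNA, a ratio of 2.27 ± 0.02 or 4.84-fold. Rgs2, a regulator that damps Gq signalling, had 5955 and 5522 in arch RNA, against 11486 and 12140.2 in thoracic RNA. Its ratio was -1.04 ± 0.13 on that probe and -0.37 ± 0.03 on a second one, so that it no longer passed with the median over its probes, at -0.71, or on array 1 alone, at -0.95. The adhesion molecule Vcam1 had 0.97 ± 0.08 and endothelin 1 (Edn1) 0.79 ± 0.06. Past 1.5-fold there were 4 genes higher and 1 lower.

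Each pool is a tissue, so fewer cells of a type and less RNA per cell cannot be told apart, and genes of other cell types were read beside these values. All 10 smooth muscle markers were well above background in both pools, and none passed in either direction, with Smtn at 0.27 ± 0.04 and Mylk at 0.27 ± 0.10. Leaving out the 3 saturated ones, Acta2 and Tagln among them, they summed to 59841 and 59818 in arch RNA and 56419 and 54804 in thoracic RNA. Of 6 mesothelium markers all 6 (Upk3b, Lrrn4, Msln, Wt1, Krt19 and Upk1b) passed as higher in the arch, at ratios from 1.16 to 1.79, with summed signals of 5897 and 5606 in arch RNA against 2058 and 2006 in thoracic RNA. Heart muscle markers passed as higher in 5 of 8, with Myl7 at 3.65 ± 0.12, Tnnt2 at 2.32 ± 0.13, Sln at 2.20 ± 0.07, Tnni3 at 1.41 ± 0.03 and Myl4 at 1.06 ± 0.01. Across the alternatives given below Sln fell as low as 1.09 and still passed. The others were Actc1 at 0.17 ± 0.23, Nppa at 0.04 ± 0.09 and, on its brightest probe, Myh6 at -0.05 ± 0.15. The 2 other Myh6 probes were dimmer, at 0.30 ± 0.06 and 0.31 ± 0.02, and both arrays put the arch higher. On those 2 probes thoracic RNA was not well above background on at least 1 array. Without Actc1, which did not pass and was the brightest, the other 7 summed to 6774 and 6658 in arch RNA against 1692 and 1753 in thoracic RNA. Macrophage markers passed as higher in 4 of 10 (Gpnmb at 2.34, Lgals3 at 1.65, Mpeg1 at 1.33 and Trem2 at 1.18). Of the 10, 8 lay above 0 and 2 below, Cd14 at -0.14 ± 0.06 and Adgre1 at -0.06 ± 0.01, with Csf1r at 0.07 ± 0.09. The 10 summed to 17735 and 17322 in arch RNA against 9809 and 9708 in thoracic RNA. Upk1b at 0.95 and Myl4 at 0.99 no longer passed without background subtraction, nor Mpeg1 at 0.84 with the median over its probes. By their summed signals the 3 lists differed in the same direction as the bright Ren1 probe and those of Ren2, Ctsd and Spp1. The part of these lists in those results was not tested.

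Endothelium markers, genes of the layer the perfusion was meant to remove and a known site of Ace, were all well above background. All 12 lay above 0 and 1, Kdr at 1.24 ± 0.04, passed, with sums of 3069 and 2991 in arch RNA against 2023 and 1986 in thoracic RNA. Vwf had 0.87 ± 0.04, Emcn 0.78 ± 0.03 and Ptprb 0.71 ± 0.11, and in the authors' deposited log ratios 3 of the 12 passed (Kdr, Vwf and Ptprb). The endothelium markers differed in the same direction as Ace, Vcam1 and Edn1, and their part in those ratios was not tested. Of the 10 adventitial fibroblast markers 8 lay above 0 and 1 passed, Lum at 1.05, which was 0.84 and did not pass without loess. Lama2 and Pdgfra each had 0.84 and Abca8a 0.81. Across the alternatives given below Pdgfra fell as low as 0.48, under the looser limit, and Lama2 no lower than 0.78. The sums without a saturated gene were 90937 and 90269 in arch RNA against 63612 and 65151 in thoracic RNA. Of the 10 fat markers 7 lay above 0 and 1 passed, Dio2 at 1.12, with the brown fat genes Cox8b at 0.61, Cidea at 0.54 and Ucp1 at 0.53. The 3 below 0 were Retn at -0.47 ± 0.15, Cfd at -0.35 ± 0.14 and Adipoq at -0.16 ± 0.04. Sums of the fat markers without a saturated gene were 40551 and 38034 in arch RNA and 38115 and 39143 in thoracic RNA. Leaving out Cfd too, the brightest of them, the sums were 21940 and 20891 in arch RNA against 16016 and 15713 in thoracic RNA. Pericyte markers, which belong to cells that also carry Enpep, passed in 0 of 7. Among them Rgs5 was lower in the arch at -0.70 ± 0.06 and Abcc9 higher at 0.64 ± 0.03, with Pdgfrb at 0.33 ± 0.13 and Kcnj8 at 0.11 ± 0.09. The list summed to 12766 and 11883 in arch RNA against 13332 and 13063 in thoracic RNA, and without Rgs5 to 9649 and 8630 in arch RNA against 8099 and 7926 in thoracic RNA. Rgs5 differed in the same direction as Enpep and Abcc9 in the opposite one, and their part was not tested.

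Mast cell markers, among them the chymases, lay below 0 in 7 of 8, with none passing, while 47.3% of all genes lay above 0. Of those 7, Cpa3, Ms4a2 and Tpsb2 changed direction between the arrays. The list median was -0.22 on array 1 and -0.04 on array 2. Fcer1a was at -0.27 ± 0.02, and Hdc lay above 0 at 0.28 ± 0.10. The 8 markers summed to 2601 and 2583 in arch RNA against 2995 and 2778 in thoracic RNA. Kidney markers, genes of the organ that makes most renin, passed in 0 of 5. Lrp2 was at 0.46 ± 0.05 on its brightest probe and at 0.00 with the median over its probes, Aqp2 at -0.22 ± 0.01, Umod at -0.06 ± 0.05 and Slc12a1 at 0.01 ± 0.04. The 5 summed to 1326 and 1655 in arch RNA against 1428 and 1816 in thoracic RNA, and without Aqp2, the brightest, to 442 and 456 in arch RNA against 404 and 409 in thoracic RNA. The probes of Umod, Slc12a1 and Slc34a1 were dim. Umod had 107 and 114 in arch RNA against 109 and 121 in thoracic RNA. Slc12a1 had 80.7 and 78.1 in arch RNA against 81.8 and 75.7 in thoracic RNA. Slc34a1 had 97.8 and 82.8 in arch RNA against 96.0 and 84.6 in thoracic RNA. These sums include the added offset of each gene, so similar sums do not show similar amounts of kidney RNA. The part of the kidney markers in the Ren1 ratio was not tested. Of 4 liver markers compared, the organ that makes most Agt and Kng1, 3 lay below 0 as those 2 genes did, with Alb at -0.62 ± 0.12, Fgb at -0.33 ± 0.17 and Apoa1 at -0.07 ± 0.01. All 3 probes were dim. Alb had 95.1 and 82.0 in arch RNA against 138 and 134 in thoracic RNA. Fgb had 84.5 and 73.1 in arch RNA against 98.1 and 100 in thoracic RNA. Apoa1 had 102 and 69.2 in arch RNA against 106 and 72.9 in thoracic RNA. Its arch RNA was not well above background on at least 1 array. In the authors' deposited log ratios Alb averaged -1.34 and passed as lower. The fourth, Ahsg, passed as higher at 1.29 ± 0.02. The 4 summed to 988 and 976 in arch RNA against 628 and 618 in thoracic RNA. Without Ahsg they summed to 282 and 224 in arch RNA against 343 and 307 in thoracic RNA. Both sums include the added offset of each gene. The part of the liver markers in the Agt and Kng1 values was not tested.

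**Figure D5:**
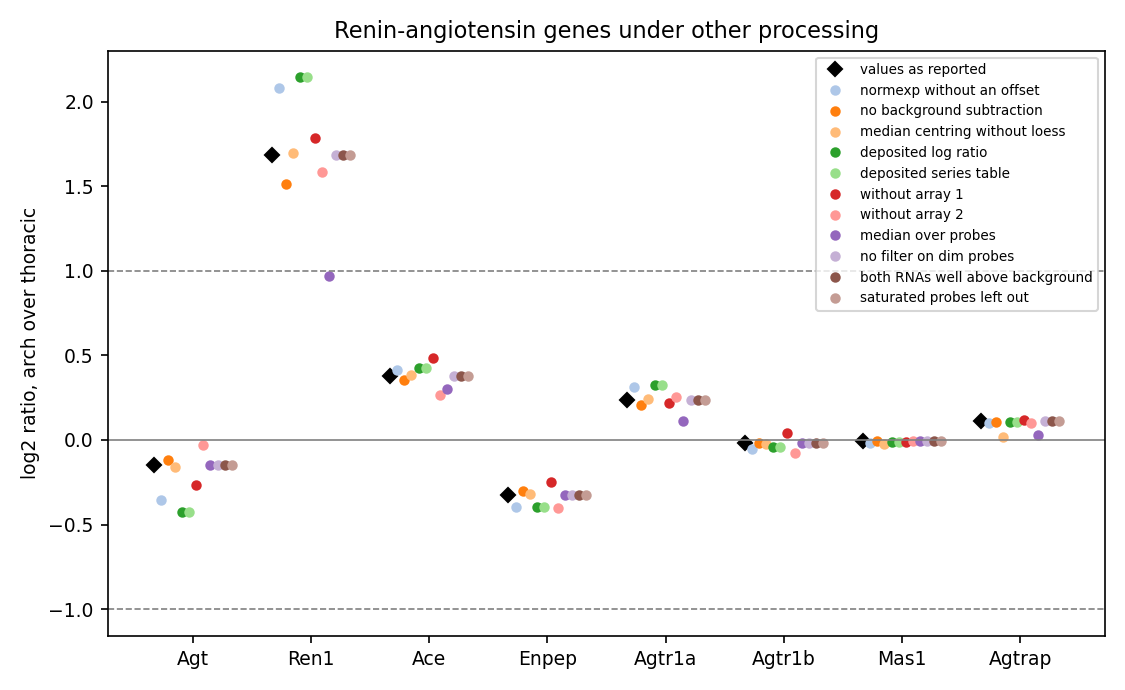
Log2 ratio of arch over thoracic for each compared renin-angiotensin gene under the main processing and the alternatives. Ren1 lies between 0.97 and 2.14 in all of them, and no other gene leaves the range from -0.43 to 0.49.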

How the data were processed

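Gene expression was measured on 2 two-colour Agilent whole-genome arrays that carried the same 2 RNA pools with the dyes exchanged. For each spot the deposited scanner tables hold intensity values that were not normalized: the mean signal of each dye and its median local background. The file headers name Feature Extraction 8.1.1.1 as the software, and 9.1.1.1 is the version in the submitters' processing notes. The deposited log10 ratio of red over green, which the authors' software computed from processed signals, served as an alternative. So did the deposited series table, which matched that ratio with both arrays turned to arch over thoracic (r = 1.00 on each, column medians 0), so that its scale and direction were settled.

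Intensities were corrected in limma 3.58.1 (R 4.3.3) by normexp with an offset of 50 and normalized by loess within each array. Outlier spots (8 and 5) were left out, array 1 was turned in sign, and the log2 ratios of both arrays were averaged as 1 replicate. Signals per pool were scaled between arrays by the Aquantile method. A gene was compared if it had a probe with the arch RNA, the thoracic RNA or both well above background on both arrays, and its brightest such probe represented it. Median signals were 139.5 and 138.9 in arch channels and 132 and 142 in thoracic ones over 41534 gene spots, against 77.0 to 97.1 for negative controls; 2 arrays of 1 pair of pools limit the precision. Probe names were updated by RefSeq accession for 21706 spots, by current symbol for 5476 and by synonym for 4672, and kept for 9680. The steps were tested on simulated data.

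The 9 genes and all further lists were chosen with earlier results of these data known. Of each list the text names the genes that passed and, up to 4 a list (6 for the 2 lists of other renin-angiotensin genes), those with the largest ratio in size. Some further members are named because they were the brightest, differed little, went the other way or could not be compared. Alternatives were the offset, the background subtraction, the loess step, the deposited values, each array alone, the probe that stands for a gene, the filter on dim probes, saturated probes and the size limit.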

Additional observations from a re-analysis of the deposited data

How the results depend on the processing

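Against 108 genes higher and 33 lower in the arch, 196 and 66 passed without the offset, 232 and 77 in the deposited log ratios and likewise 232 and 77 in the deposited series table, and 320 and 104 passed at the 1.5-fold limit. With 1 array left out, 103 to 114 genes were higher and 33 lower, and 1 renin-angiotensin gene passed as higher each time. That count was 1 under all alternatives but the median over probes, where it was 0, as Ren1 was at 0.97. No renin-angiotensin gene passed as lower in any. Ren1 ran from 0.97 to 2.14, Ace from 0.27 to 0.49 and Enpep from -0.40 to -0.25. Agt ran from -0.43 to -0.03, Agtr1a from 0.11 to 0.32, Agtrap from 0.02 to 0.12 and Mas1 from -0.03 to -0.00. Agtr1b ran from -0.08 to 0.04 and was above 0 on array 2 alone. The median of the renin-angiotensin genes was 0.05, and -0.00 without loess. No paired analysis was possible because both arrays hold the same 2 pools and no test was made. Dim probes limit Agt, Agtr1b, Agtr2 and Mas1, and also the second Ren1 probe and the thoracic signal of the Ren2 probe. The same holds for the kidney markers Umod, Slc12a1 and Slc34a1 and for the liver markers Alb, Fgb and Apoa1.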
